A study of Mus musculus with 14 samples.

Results

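The earliest point of the series was a single comparison. Mouse embryoid bodies (aggregates in which embryonic stem cells differentiate) were sampled on day 2.25 of differentiation, 6 h after ER71/Etv2, GATA2 and Scl were switched on, beside untreated embryoid bodies of the same day. The comparison was chosen by its labels and holds 2 of the 14 arrays of the series. The other 12 arrays cover day 2.5 (12 h of induction) and day 3 (24 h), with 3 induced and 3 control arrays each. All cells came from doxycycline-inducible embryonic stem cell lines, kept on PMEF feeder cells before differentiation in serum. Both day 2.25 arrays were replicate A of the line iEGS. The later groups held iEGS as replicates A and B and the line iB1 as replicate C.

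The induced array is labelled with co-expression of the 3 factors and received doxycycline at 1 µg/ml from day 2. The control array is labelled wild-type and untreated, but comes from the same inducible line, so the transgene is present and uninduced. Cells given doxycycline without the transgene were not analysed here, and an effect of the drug cannot be told apart from that of the factors. Each group at 6 h had 1 array, so 6 h values are differences without a test. The replicated arrays of 12 h and 24 h, which the 6 h difference did not use, were tested with limma. The replicates are described as independent experiments. The p-values set a change against the spread within groups. The main fit held no term for the replicate, so that spread includes differences between experiments and between the lines iEGS and iB1.

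Etv2 (ER71) is an ETS factor that acts early in the mesoderm that gives rise to blood and vessels. Gata2 is a zinc finger factor of blood progenitors and endothelium, and Tal1 (Scl) is a basic helix-loop-helix factor that pairs with E proteins and works in a complex with Lmo2 and GATA factors. All 3 act around the Flk1-positive progenitor of blood and endothelium, called the hemangioblast, where Flk1 is the protein of Kdr. Cells of this stage leave the epiblast through the primitive streak, and Nodal, Wnt and FGF signals keep that streak programme running.

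All levels are log2 array signals, on which 1 unit is a 2-fold step, and all differences are induced minus control. The 2 day 2.25 arrays correlated at 0.994 over 19938 genes, within the range of 0.951 to 0.995 between any 2 of the 14 arrays. Over all genes the 6 h difference had an SD of 0.243, and the median residual SD of a gene within the replicated groups was 0.215. The first is the spread of a difference between 2 arrays and the second that of single arrays, so they are unlike measures. The control arrays of replicate A on days 2.25 and 2.5 were at least 2-fold apart for 16 genes, and those of the day 2.5 control replicates for 63 to 405 genes. At day 2.25 Pou5f1, the core pluripotency factor, stood at 11.34 and 11.41 on the control and induced arrays, above 99% of genes. Transcripts of the streak were present as well, such as Eomes at 9.43 and 8.77. Gene T, the classical streak marker, had no probe set with 1 symbol. The control signals of the 8 fixed endothelial markers ran from 3.20 (Emcn) to 6.61 (Pecam1), and Kdr and Esam were 2-fold higher on the induced array. Of the embryonic globin genes, Hbb-bh1 read 2.50 and 2.80, Hbb-y 3.19 and 3.03, and Hba-x 4.44 and 4.02. The 7 markers of feeder fibroblasts summed to a log2 signal of 8.41 on the control and 8.59 on the induced array. Their median difference was -0.06, with Thy1, the brightest, at 0.38. None of them was 2-fold apart (0.356% of all genes). Their part in the differences below was not tested.

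At 6 h, 71 genes (0.356% of 19938) were at least 2-fold apart, 44 higher (0.221%) and 27 lower (0.135%) on the induced array. The higher genes were led by Gata2, the amino acid carrier Slc7a8, Etv2 and Tal1, followed by the lysosomal transporter Slc46a3, the growth factor binding protein Igfbp4 and the endothelial factor Sox18. The VEGF receptor Kdr was also among them. The lower genes were led by Igfbp3, the endoderm and node factor Foxa2, the guidance molecule Sema6a, the streak ligand Wnt8a and the activin antagonist Fst. The higher group ended with Endod1 at 1.00, next to Hspa12a just outside at 0.9998, and the lower group with Mab21l2 at -1.02, next to Prickle1 at -0.996.

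**Figure D1:**
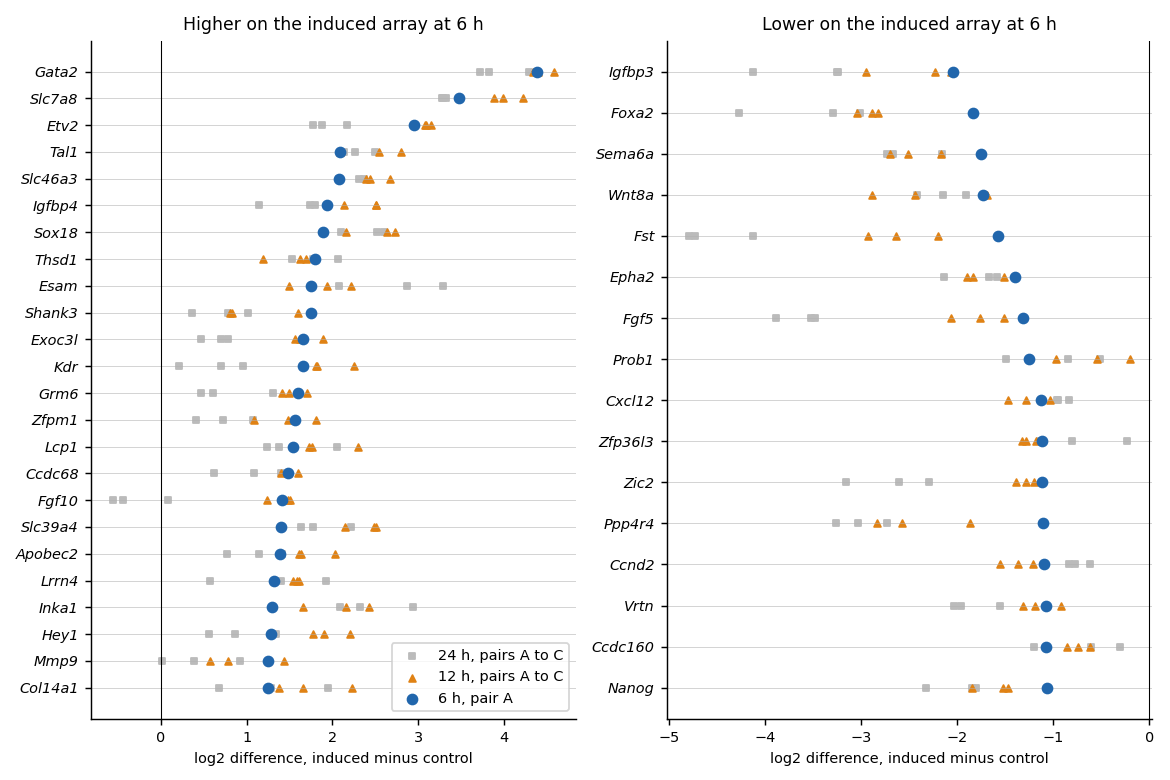
Log2 difference, induced minus control, for the genes furthest apart at 6 h, in order of the 6 h value. Only genes whose higher day 2.25 signal, on the control or the induced array, was above the median were ranked. Blue circles are the single 6 h pair, orange triangles the 3 pairs at 12 h and grey squares the 3 pairs at 24 h. Gata2 (4.38) and Slc7a8 (3.48) stand apart on the left panel, and Igfbp3 (-2.04) leads the right one.

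The 3 induced factors check the labels. Gata2 read 5.68 on the control and 10.06 on the induced array, a difference of 4.38. Etv2 read 7.35 and 10.30 (2.95), and Tal1 5.14 and 7.23 (2.09). At 12 h the induced arrays read 10.43, 9.89 and 9.93 for Gata2, against 5.85, 5.49 and 5.59 in the controls, so that the groups were far apart. The array cannot separate transgene from endogenous transcripts. In replicate A the 12 h difference was 4.59 for Gata2, 3.09 for Etv2 and 2.80 for Tal1. The limma log2 change at 12 h was 4.44 ± 0.18 (SE, n = 3 per group) for Gata2, 3.11 ± 0.19 for Etv2 and 2.48 ± 0.24 for Tal1, with Benjamini-Hochberg adjusted p-values of 1.07e-08, 6.86e-07 and 4.9e-05.

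Beyond the induced factors, transcription regulators of endothelium and blood were among the higher genes. Sox18, a SoxF factor of vessel formation, read 6.23 and 8.12 on the control and induced arrays at 6 h. At 12 h its induced arrays read 8.89, 8.67 and 8.38 and its controls 6.17, 6.02 and 6.21, without overlap, a rise of 2.51 ± 0.22 (limma, adjusted p = 2.5e-05). Zfpm1, the GATA partner known as FOG1, was higher by 1.57 at 6 h, and Hey1, a Notch target and repressor in arteries, by 1.29. Hey1 read 8.42, 8.69 and 8.53 at 12 h against 6.64, 6.49 and 6.63, without overlap, a rise of 1.96. Fli1, an ETS factor of endothelium and blood, read 5.38 and 6.54, a 6 h difference of 1.16. Tbx20, a T-box gene of the heart, was higher by 1.43. All 5 rose at 12 h by limma, with adjusted p-values from 6.86e-07 for Fli1 to 0.0008 for Tbx20.

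Receptors and surface proteins of endothelium followed. Kdr, the main VEGF receptor of progenitors and vessels, read 4.87 and 6.52 at 6 h. At 12 h it read 7.51, 6.79 and 6.77 in induced and 5.26, 4.97 and 4.96 in control arrays (1.96 ± 0.26, limma adjusted p = 0.000787). Nrp1, its co-receptor, read 3.90 and 5.44. Its control was 4.82 on day 2.5 in the same replicate, and it rose by 1.20 at 12 h (limma, adjusted p = 0.0262). That call was lost without control replicate B or C or induced replicate A, B or C of day 2.5, at adjusted p-values from 0.067 to 0.149. Thsd1, a transmembrane protein of endothelium, and Esam, an adhesion molecule of endothelial junctions, were higher by 1.80 and 1.75 at 6 h. Esam read 4.41 and 6.16, and at 12 h 6.79, 6.37 and 6.52 against 4.57, 4.87 and 4.58. In these bulk samples more cells of a type and more RNA per cell cannot be told apart.

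Several of the most different genes do not belong to the endothelial or blood lists. Slc7a8, a carrier of neutral amino acids, read 5.22 and 8.70 at 6 h, 11.2-fold apart and the largest difference outside the induced factors. At 12 h it read 9.32, 8.69 and 8.99 against 5.44, 4.70 and 4.76 (4.03 ± 0.28, limma adjusted p = 2.22e-06). Slc46a3, a lysosomal membrane transporter, was higher by 2.07, and Slc39a4, a zinc importer, by 1.40. Among signalling proteins, Igfbp4 (an IGF binding protein) was higher by 1.93, Fgf10 (an FGF ligand) by 1.41 and Gas6 (a ligand of the Axl and Mer receptors) by 1.24. Lcp1, an actin bundler of leukocytes, was higher by 1.54, Exoc3l, a relative of an exocyst subunit, by 1.66, and the metabotropic glutamate receptor Grm6 by 1.60. Apart from the genes that follow, these rose at 12 h by limma, Slc39a4 by 2.38 ± 0.20 (adjusted p = 1.49e-05). Shank3, a scaffold protein of synapses, read 5.52 and 7.27 at 6 h. At 12 h its limma adjusted p was 0.0534, and 0.00197 with the replicate block (the replicate number as a term of the fit). The matrix protease Mmp9, higher by 1.25, had adjusted p-values of 0.17 and 0.0453 in these fits.

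The lower genes hold regulators of epiblast, node and streak. Foxa2, a forkhead factor of node and endoderm, read 7.94 on the control and 6.11 on the induced array at 6 h. Its induced arrays at 12 h read 5.58, 5.03 and 5.29 and its controls 8.47, 7.86 and 8.33, a fall of -2.92 ± 0.23 (limma, adjusted p = 7.51e-06). Nanog, a pluripotency factor that stays on in the early streak, read 10.29 and 9.22. The zinc finger factors Zic2 and Zic5 of the epiblast were lower by a log2 difference of -1.12 and -1.04. Foxi3, another forkhead gene, differed by -1.06, with a 12 h call (limma adjusted p = 0.0164) that was lost without control replicate B or C or induced replicate A or B of day 2.5, at up to 0.0917. Vrtn, a DNA-binding protein that acts on vertebra number, differed by -1.08, and Irf1, the interferon response factor, by -1.02. All 7 fell at 12 h by limma at an adjusted p under 0.05.

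Genes for signals and receptors were lower as well. Igfbp3 read 9.48 and 7.44 at 6 h, the largest negative difference, at -2.04. Its 12 h arrays read 6.89, 6.86 and 7.12 against 9.84, 8.93 and 9.35, without overlap. Igfbp3 and Igfbp4 thus moved in opposite directions at 12 h (-2.42 ± 0.22 and 2.39 ± 0.19, limma adjusted p = 3.23e-05 and 9.3e-06). Wnt8a, a Wnt ligand of the streak, read 6.95 and 5.22. Fst, the secreted antagonist of activin, read 8.83 and 7.25, and Fgf5, an FGF of the epiblast, 8.78 and 7.46. The transmembrane semaphorin Sema6a differed by -1.75, the receptor tyrosine kinase Epha2 by -1.40 and the chemokine Cxcl12 by -1.12. Dact1, a modulator of Wnt signalling, differed by -1.08 and the cell cycle gene Ccnd2 by -1.09. Ppp4r4, a regulatory subunit of a phosphatase, differed by -1.11 at 6 h and fell by 2.43 at 12 h.

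Promoters of 5 of these genes are shown. They are the start regions of the 4 genes furthest above and the 1 furthest below control outside the induced factors. Only genes whose higher day 2.25 signal was above the median, with exactly 1 promoter window in the RefSeq table, were taken. Sox18 was passed over by this rule. Each runs over the 250 bases before the RefSeq start, 5′ to 3′ on the gene's strand, GRCm38.p6. Capitals mark matches, on either strand, to CCGGAA for ETS, to AGATAA or TGATAA for GATA, or to CAGNTG for the E-box that Tal1 complexes bind. The positions are chr14:54781887-54782136 (minus strand) for Slc7a8, chr5:147894816-147895065 (minus) for Slc46a3, chr11:99040994-99041243 (plus) for Igfbp4, chr8:22227053-22227302 (plus) for Thsd1 and chr11:7213924-7214173 (minus) for Igfbp3.
Slc7a8: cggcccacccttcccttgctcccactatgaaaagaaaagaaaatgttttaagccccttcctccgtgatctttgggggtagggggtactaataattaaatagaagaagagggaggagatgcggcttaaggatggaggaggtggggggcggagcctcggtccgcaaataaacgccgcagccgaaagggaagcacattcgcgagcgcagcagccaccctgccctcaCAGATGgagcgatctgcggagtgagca
Slc46a3: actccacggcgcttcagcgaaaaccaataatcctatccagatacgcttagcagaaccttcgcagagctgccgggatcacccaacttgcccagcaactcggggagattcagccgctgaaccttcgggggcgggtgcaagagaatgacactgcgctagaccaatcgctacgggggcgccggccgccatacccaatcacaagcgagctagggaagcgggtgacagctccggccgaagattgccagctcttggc
Igfbp4: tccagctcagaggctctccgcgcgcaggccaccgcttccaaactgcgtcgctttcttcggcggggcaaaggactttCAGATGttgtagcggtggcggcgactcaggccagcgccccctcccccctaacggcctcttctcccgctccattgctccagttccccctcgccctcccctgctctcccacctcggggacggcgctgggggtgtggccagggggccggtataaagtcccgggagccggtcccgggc
Thsd1: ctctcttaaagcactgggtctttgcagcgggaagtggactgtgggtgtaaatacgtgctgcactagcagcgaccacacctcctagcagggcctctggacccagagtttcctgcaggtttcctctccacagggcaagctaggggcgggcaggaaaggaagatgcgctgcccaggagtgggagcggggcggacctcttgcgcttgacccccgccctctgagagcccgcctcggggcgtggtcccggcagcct
Igfbp3: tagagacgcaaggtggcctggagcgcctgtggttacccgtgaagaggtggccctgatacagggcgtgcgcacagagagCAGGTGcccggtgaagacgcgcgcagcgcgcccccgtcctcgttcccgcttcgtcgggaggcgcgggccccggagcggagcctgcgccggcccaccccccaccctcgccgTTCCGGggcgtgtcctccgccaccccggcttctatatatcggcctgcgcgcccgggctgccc
The promoters of Slc7a8 and Igfbp4 held 1 E-box each, and those of Slc46a3 and Thsd1 held none of the 3 motifs. That of Igfbp3, a lower gene, held 1 ETS match and 1 E-box. Of the 44 higher genes, 31 had a promoter in the RefSeq table, with 39 windows, and 2.56% of the windows held the ETS letters, 15.4% a GATA motif and 46.2% an E-box. Of the 27 lower genes, 18 had a promoter, with 24 windows, and the shares were 16.7%, 16.7% and 41.7%. Over 32851 windows of 27025 genes the shares were 12.0%, 16.6% and 44.8%. A match is a match of letters, and none of these windows was measured for binding.

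The later arrays then show which 6 h differences were seen again. Pair A is the induced and control array of replicate A. The 44 higher genes include the 3 induced factors, whose rise is set by the design. They stay in all counts of rises below. Of the 44 higher genes, 43 were higher in pair A of 12 h (50.6% of all genes) and 36 were at least 2-fold higher there (0.858% of all genes). Of the 27 lower genes, 24 were lower in that pair (49.4% of all genes) and 19 by 2-fold (0.522%). Pair A of 12 h comes from the same replicate number as the 6 h arrays, while pairs B and C do not. In all 3 pairs, 43 higher genes (17.0% of all genes) and 22 lower genes (20.6%) kept their direction. By limma at an adjusted p under 0.05, 37 of the 44 rose at 12 h, against 0.813% of all genes, and 21 of the 27 fell, against 0.577%. With the replicate block it was 39 and 21. Without replicate B on every day it was 19 and 11, and without replicate C the falls were 12. Kdr (adjusted p = 0.0593), Lcp1 (0.0587), Tbx20 (0.0823), Fgf10 (0.0844), Exoc3l (0.139) and Grm6 (0.141) were among the rises no longer called without replicate B. Cxcl12 (0.0519), Vrtn (0.0731), Zic5 (0.0823), Epha2 (0.0844), Irf1 (0.1) and Zic2 (0.126) were among such falls. None of the 71 was called in the other direction at 24 h, where 27 of the 44 (2.03% of all genes) and 20 of the 27 (3.43%) were called in their own.

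**Figure D2:**
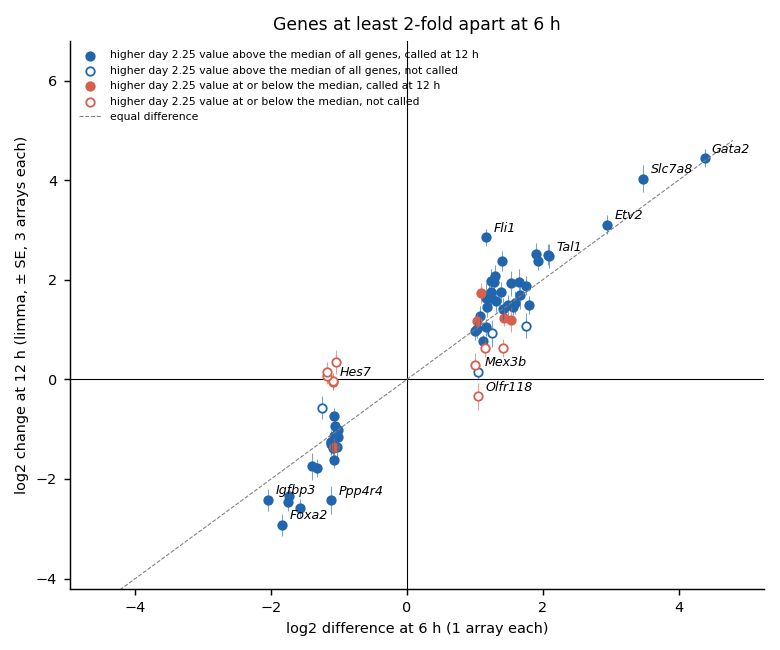
Each point is 1 of the 71 genes, with the 6 h log2 difference (1 array each) on the x axis and the 12 h limma log2 change with its SE (3 arrays per group) on the y axis. Filled points were called at 12 h. For blue points the higher of the 2 day 2.25 signals was above the median of all genes, for red ones not. The dashed line marks equal values. Of the 58 filled points, 46 have a larger change at 12 h than at 6 h.

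Brighter genes were seen again more often than dim ones, in counts that were not tested. Of genes whose higher day 2.25 signal was above 5.68, the median of these signals over all genes, 33 of 36 higher and 20 of 21 lower genes were called in the same direction at 12 h. The exceptions were Shank3, Mmp9, the RNA-binding protein gene Mex3b and Prob1, a proline-rich protein. Of the dimmer genes, 4 of 8 higher and 1 of 6 lower ones were called. Over all genes 0.813% were called higher and 0.577% lower at 12 h. The signal used for this split also enters the 6 h difference, so the split is not independent of it. Some higher genes passed the median only on the induced array, such as Kdr (4.87 on the control and 6.52 on the induced array). Among the dim ones, Olfr118 (an odorant receptor gene) was higher by 1.05 at 6 h and lower in all 3 pairs at 12 h, and Pramel27 was lower by a log2 difference of -1.04 at 6 h and higher in all 3 pairs. The control of Olfr118 read 2.39 on day 2.25 and 3.50 on day 2.5 in replicate A, and it was the single gene of the 71 that was 2-fold apart between these controls. Hes7, the segmentation clock repressor, differed by -1.10 at 6 h and by -0.04 at 12 h. With the mean of both controls in place of the day 2.25 control, 57 of the 71 genes stayed 2-fold apart.

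The 6 h differences were set against those of pair A at 12 h. Over the 37 higher genes that rose at 12 h, the induced factors among them, the 6 h difference was a median 82.4% of the log2 difference in pair A at 12 h. Of the 37, 6 had reached or passed it. Over the 21 lower ones the median was 74.8%, and 2 had reached it. The slowest of these genes were Fli1, at 35.0%, and Ppp4r4, at 39.1%. Fli1 read 8.55, 8.31 and 8.14 at 12 h and 9.99, 9.86 and 9.49 at 24 h, while its controls stayed between 5.22 and 5.62. Its rise at 24 h was larger than at 12 h by 1.42 ± 0.24 (limma, adjusted p = 0.0163). Since genes had to be 2-fold apart at 6 h to enter, these medians describe genes chosen for an early difference.

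The genes that rose or fell by 12 h show how much of the response was in place. Of the 162 genes that rose at 12 h, 158 were higher at 6 h by any amount (50.1% of all genes). By at least 1.5-fold 100 were higher (1.4%), and by at least 2-fold 37 (0.221%). Of the 115 that fell, 111 were lower by any amount (49.9%), 56 by 1.5-fold (1.29%) and 21 by 2-fold (0.135%). In the fit with the replicate block 247 rose and 194 fell. Genes that were flat at 6 h, with a difference under 0.25, numbered 14 among the 162 rises and 16 among the 115 falls. The share of all genes under 0.25 was not counted, so these counts are not set against it. Cdh5 (VE-cadherin, the adhesion molecule of endothelial junctions) read 5.32 and 5.54 at 6 h, then 6.56, 6.18 and 6.28 at 12 h against 5.46, 5.11 and 4.96. Its induced arrays reached 9.50, 9.02 and 8.43 at 24 h. The ETS factor Erg read 4.65 and 4.59 at 6 h and rose by 0.85 ± 0.19 at 12 h (limma, adjusted p = 0.0405). Leaving out single arrays moved Erg to adjusted p-values of up to 0.222 (without control replicate C of day 2.5), and Cdh5 from 0.0178 to up to 0.116 without the same array. Parvb, a protein of integrin adhesions, differed by 0.24 at 6 h and rose by 1.45. Among the falls, Fabp7, a fatty acid binding protein, differed by -0.22 at 6 h and fell by 1.40 at 12 h. The FGF feedback inhibitor Spry4 read 7.48 and 7.64 at 6 h and fell by 1.05, and Psmb8 and Tapbp, which serve antigen presentation, differed by -0.23 and -0.22 and fell by 1.31 and 0.89. Spry4 and Tapbp were no longer called without control replicate A or C or induced replicate B or C of day 2.5, at adjusted p-values of up to 0.141 and 0.105 (limma).

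Some early differences were smaller or no longer called at 24 h, and a missing call does not show that a difference was gone. Of the 44 higher genes, 11 were called at 12 h and not at 24 h, and for 3 of them the effect itself was smaller at 24 h by test. Fgf10 read 6.31 and 7.72 at 6 h and rose by 1.41 ± 0.23 at 12 h (limma, adjusted p = 0.00368). At 24 h its controls read 8.25, 7.58 and 7.67, overlapping 7.81, 7.66 and 7.11 on the induced arrays. The effect at 24 h was 1.72 below that at 12 h (difference -1.72 ± 0.32, limma adjusted p = 0.0312). Pcdh19, a protocadherin, and Nxph4, a neurexophilin, had smaller effects at 24 h by -1.48 ± 0.26 and -1.31 ± 0.25 (adjusted p = 0.0164 and 0.038). Tbx20 rose by 1.23 at 12 h and differed by 0.22 at 24 h, and the difference between these effects did not pass the test (limma adjusted p = 0.105). Kdr was not called at 24 h (0.62 ± 0.26, adjusted p = 0.252), and with the replicate block it was (0.021), as were Shank3 (0.0152), Exoc3l (0.0189) and Grm6 (0.011). From 12 h to 24 h the Kdr mean rose from 5.06 to 7.09 in controls and from 7.02 to 7.71 in induced arrays. Exoc3l and Grm6 were still higher on the induced arrays of 24 h, without overlap. Among the lower genes the effect grew for Fst, Fgf5 and Zic5, by -1.96, -1.85 and -1.08 (limma adjusted p = 0.00504, 0.00455 and 0.0447). Such a test passed for 0.426% of all genes.

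**Figure D3:**
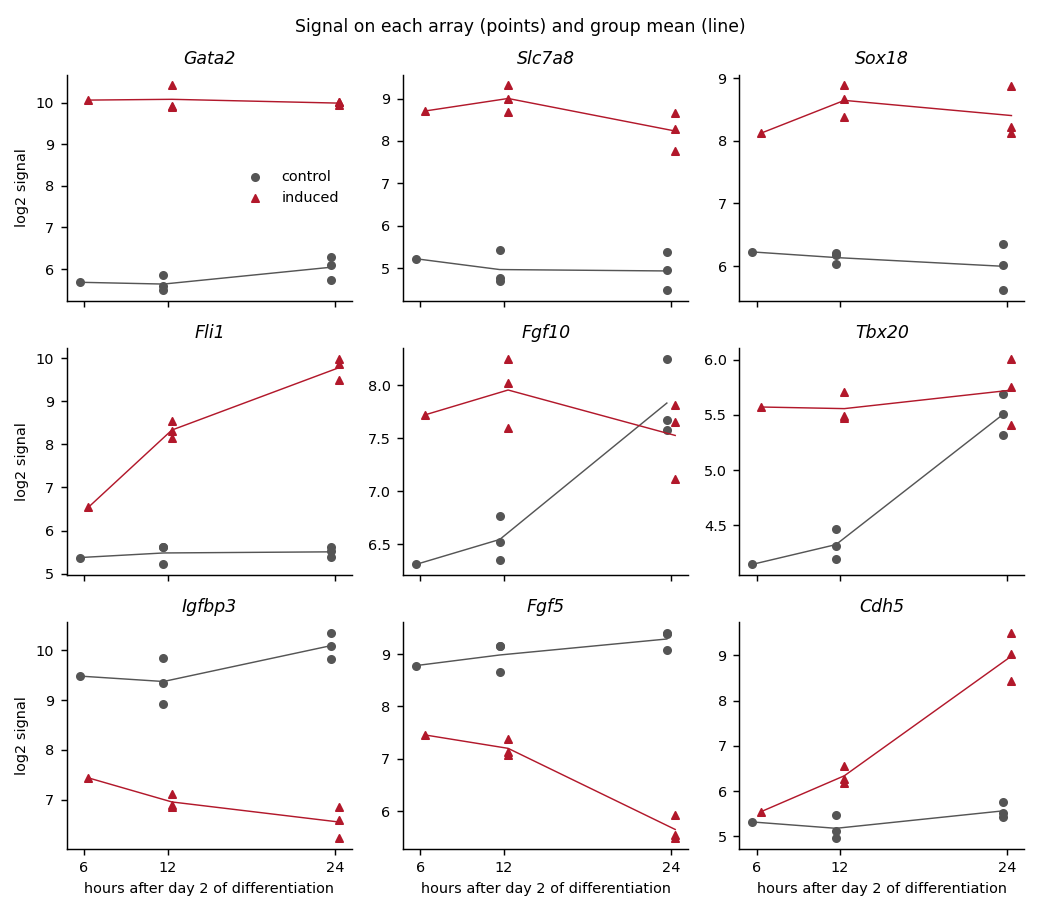
Log2 signal on each array for 9 genes, against hours after day 2. Grey circles are control and red triangles induced arrays, 1 per group at 6 h and 3 later, and lines join the group means. Induced Gata2 reads 10.06 and Slc7a8 8.70 at 6 h already, Fli1 climbs through 24 h, Cdh5 is flat at 6 h, and the Fgf10 and Tbx20 groups meet at 24 h.

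Lists of related genes were set beside a median 6 h difference over all genes of 0.0004. Among 14 VEGF and Tie genes the median was 0.41. Of the 14, 10 were higher (50.1% of all genes), and Kdr and Nrp1 by 2-fold (0.221%). At 12 h Tek, the angiopoietin receptor, rose as well. Among 20 endothelial surface genes the median was 0.17. Esam and Thsd1 were 2-fold higher, and Icam2, an adhesion molecule, was just under it. At 12 h 7 of the 20 rose (0.813% of all genes) and none fell (0.577%). Among 13 SoxF and other endothelial factors, Sox18 was 2-fold higher, while Hhex, a homeobox factor of blood and endothelium, differed by 0.89 and Sox7 by 0.55 at 6 h and both rose at 12 h (2.32 and 1.87). Among 13 ETS factors the median was -0.01, with Fli1 2-fold higher and Elk3 at 0.94. At 12 h 4 of the 13 rose (0.813% of all genes) and 2 fell (0.577%). Etv4 and Etv5, targets of FGF signalling, fell at 12 h.

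Of 14 blood progenitor factors, Zfpm1 was 2-fold higher, and Lmo2, the bridging protein of the Tal1 complex, differed by 0.83 and rose by 1.67 at 12 h. Runx1, a factor of definitive blood, differed by 0.54 and rose by 1.15, and Tal2 by 0.35 and 1.76. In 11 blood surface genes the largest difference was that of Spn (-0.54), and in 10 erythroid genes those of Alas2 (-0.44) and Epb42 (-0.43). None of these 21 genes passed the 12 h test, which 1.39% of all genes passed. With so few genes, that count does not set these lists apart from all genes.

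Of 18 streak genes, 15 were lower at 6 h (49.9% of all genes), with a median of -0.63. Wnt8a and Fst were 2-fold lower, Sp5, a Wnt target, differed by -0.87, Fgf8 by -0.83, Mixl1 by -0.78 and Eomes by -0.66. At 12 h 7 of the 18 fell (0.577% of all genes) and none rose (0.813%), and at 24 h 17 fell (3.43%). The streak markers summed to 10.46 on the control and 9.76 on the induced array, and the endothelial markers to 8.10 and 8.75. Of 11 epiblast genes, 9 were lower (49.9% of all genes; median -0.24), 3 by 2-fold (0.135%; Fgf5, Zic2 and Zic5), and 4 fell at 12 h (0.577%). Of 19 pluripotency genes, Nanog was 2-fold lower, Lefty1 differed by -0.77 and Sox2 by -0.53, while Pou5f1 differed by 0.07 and Tbx3 by 0.51. In the Nodal and activin list 10 of 13 were lower (49.9% of all genes), Nodal itself by -0.64, and 4 fell at 12 h (0.577%). Of 15 endoderm and node genes only Foxa2 was 2-fold apart at 6 h, with Dkk1, a Wnt antagonist, at 0.80 and Hnf4a at -0.65.

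Other pathways had few members 2-fold apart at 6 h. In the FGF list, Fgf5 was 2-fold lower, and Fgf8 and Fgf17 differed by -0.83 and -0.73, while the receptor Fgfr2 differed by 0.55. At 12 h 6 of the 16 FGF genes fell (0.577% of all genes) and 1 rose (0.813%). Of 17 BMP genes none was 2-fold apart (0.356% of all genes), with Smad6, an inhibitor of BMP signalling, at 0.79 and the target Msx1 at 0.65. Of 17 Notch genes, Hey1 was higher and Hes7 lower. In 11 IGF genes Igfbp4 was higher and Igfbp3 lower, and Igf2, the growth factor, differed by 0.54 and rose by 1.74 at 12 h. Of 15 amino acid carriers, Slc7a8 was 2-fold higher, and the next was Slc7a5 at 0.41. Among 16 guidance genes Sema6a and Epha2 were 2-fold lower, and at 12 h 5 fell (0.577% of all genes) and 2 rose (0.813%). All 15 hypoxia and glycolysis genes were lower at 6 h (49.9% of all genes), by small amounts (median -0.13), and Ndrg1 differed most, at -0.86. None of the 15 was called at 12 h (1.39% of all genes). Of the immediate early genes Egr1 differed by -0.92 and Nr4a1 by 0.58. In the proliferation list Ccnd2 was 2-fold lower and the median was -0.01. Lists of p53 targets, mitochondrial stress, feeder fibroblast, smooth muscle, neural and reference genes had no member 2-fold apart (0.356% of all genes). Lists this short do not differ from all genes by such a count.

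**Figure D4:**
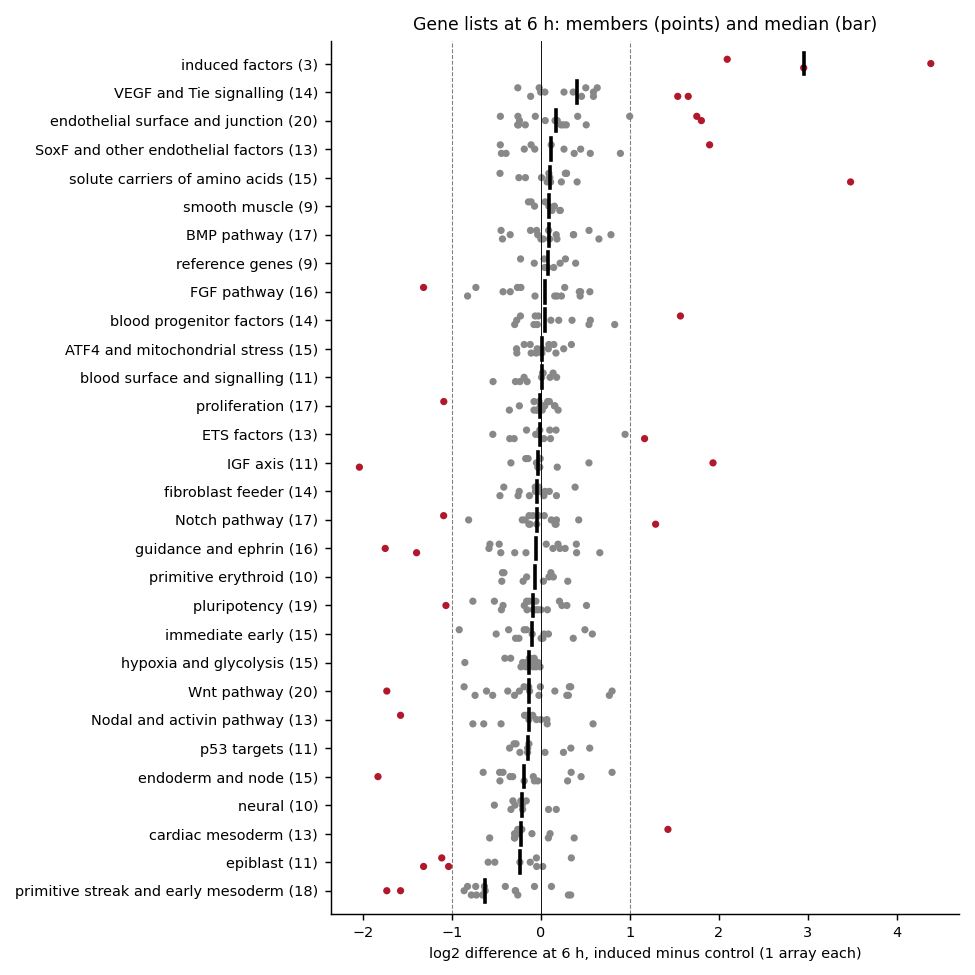
Log2 difference at 6 h for the members of 30 gene lists (points; number measured in parentheses) and the median of each list (bar), ordered by median. Red points are at least 2-fold apart, at the dashed lines. Streak genes have the lowest median (-0.63), and after the induced factors VEGF and Tie signalling has the highest (0.41).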

How the data were processed

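RNA of 14 samples was profiled on Affymetrix arrays after cDNA amplification, per the labels' protocols. The authors deposited log2 values for 35556 probe sets. The submitters' processing notes name RMA and Affymetrix Expression Console, with versions not given in the sources used here. This method usually includes quantile normalization between arrays, which would remove shifts common to most genes, but which arrays were normalized together is unknown here, and the medians and SDs of the deposited arrays differ slightly. It compresses dim signals. Precision is limited by the number of arrays.

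Names came from the platform annotation: 21789 probe sets had 1 symbol, 1621 several and 12146 were not listed. The RefSeq gene table (GRCm38.p6) held 21698 of them and changed 0 symbols. For 999 genes with several probe sets the one with the highest mean was used, which left 19938 genes. Genes 2-fold apart at 6 h were counted without a test. The 12 arrays of the 4 replicated groups entered 1 limma fit (limma 3.58.1, R 4.3.3, 8 residual and 6.05 prior degrees of freedom), at a Benjamini-Hochberg adjusted p under 0.05 over all genes. The script was tested on simulated data. Alternatives were the probe set choice, another quantile normalization, centring, a filter on dim genes, other folds, leaving out arrays and the replicate number as a block. Same-numbered samples deviated together across genes within a day (correlations of 0.573, 0.344 and 0.262 at day 2.5, and 0.517, 0.157 and 0.261 at day 3), so the labels' replicate numbers were taken to pair the samples. At day 3 control B correlated more with induced C (0.375) than with induced B (0.157), so its pairing is less clear.

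Genes were named by a rule: the 3 induced factors; the 24 highest and 16 lowest at 6 h with signal above the median; list members 2-fold apart, or the 2 most different of a list with none; genes that turned in all 3 pairs at 12 h; and the 8 largest rises and 8 largest falls at 12 h that were under 0.25 at 6 h. The signal in this rule is the higher of the 2 day 2.25 values. Other names were chosen after their values were seen. The comparison, its members and the 30 lists were chosen with earlier results of these data known. Of 413 list symbols, 395 were measured.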

Additional observations from a re-analysis of the deposited data

Results flagged for a closer look

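Of the 71 genes at least 2-fold apart at 6 h, 7 had a 12 h effect that differed from the 24 h effect by limma's test. Over all genes 0.426% passed that test. Pcdh19 (-1.48) and Nxph4 (-1.31) are described with the 24 h results, and the other 5 follow. The effect at 24 h minus that at 12 h was -1.72 for Fgf10 and 1.42 for Fli1. It was -1.08, -1.85 and -1.96 for Zic5, Fgf5 and Fst, whose falls were larger at 24 h.

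For Olfr118 the 6 h difference was 1.05, while all 3 pairs at 12 h went the other way. For Pramel27 it was -1.04, and again all 3 pairs at 12 h were opposite. These reversals were not tested.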

How the results depend on the processing

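A 6 h difference rests on 1 array per group, on 1 line and 1 replicate. The 44 higher and 27 lower genes became 279 and 257 at 1.5-fold, 13 and 4 at 3-fold, and 420 and 300 with all probe sets included. Normalizing again, centring, leaving out dim genes and averaging probe sets kept the 6 h counts within 1.5 times. At 12 h, 162 genes rose and 115 fell. The fit with the replicate block gave 247 and 194, and leaving out arrays gave 43 to 216 and 37 to 150. At 24 h, 405 genes rose and 683 fell. Fitting only the groups compared gave 266 and 403, the replicate block 610 rises, and leaving out arrays 143 to 662 and 248 to 1227. The genes both apart at 6 h and called ranged from 19 to 38 (higher) and 11 to 21 (lower) at 12 h, and from 16 to 29 and 14 to 20 at 24 h, when arrays were left out. (Replicates 1, 2 and 3 are A, B and C.) Of the 58 that were called at 12 h, 28 were lost without replicate 2, 16 without replicate 3 and 3 without replicate 1; fewer arrays leave a weaker test. Leaving out single arrays lost 8 (Ccdc160, Endod1, Foxi3, Mab21l2, Nrp1, Nxph4, Stard8 and Zfp36l3). The replicate block lost none of the 58. No called result turned its direction under any of these alternatives. With the mean of the 2 controls of replicate A as control, an alternative chosen after seeing the data, 14 of the 71 genes were under 2-fold.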

Other observations

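Probe sets without a single gene symbol behaved differently from the named ones at 6 h. Of 13767 with several symbols or none, 643 (4.67%) were at least 2-fold apart, against 77 of 21789 (0.353%) with 1 symbol. Their direction was seen again in pair A of 12 h for 51.2%, against 89.6% of the named ones. In all 3 pairs it was 14.2% against 85.7%. Among the probe sets 2-fold apart, the median of the higher day 2.25 signal was 4.47 for the unnamed and 6.67 for the named ones. Among probe sets with that signal above the median of genes, 1.77% of the unnamed and 0.517% of the named ones were 2-fold apart. Of these, the direction was seen again in pair A of 12 h for 48.8% and 100% and in all 3 pairs for 17.1% and 100%.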
